A study of Mus musculus with 8 samples.

Results

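The genes described here are 7 myosin light chain genes (Myl1, Mylpf, Myl2, Myl3, Myl4, Myl6 and Myl6b) and the skeletal muscle light chain kinase gene Mylk2, all 8 taken by symbol from the 54091 gene rows of a normalized expression table. The RNA came from the white part of the quadriceps of male mice aged 11 to 14 weeks that had been fasted for 14 h overnight. In 4 of them (Acot2 muscle knockout, mice 5 to 8) Cre recombinase under the creatine kinase promoter (CKM Cre) had removed Acot2, a mitochondrial acyl-CoA thioesterase gene, in muscle. The other 4 (floxed control, mice 1 to 4) were Loxp/Loxp without Cre. The knockout label names Cre and the loss of Acot2 in muscle, mice with Cre alone were not analysed here, and an effect of Cre cannot be told apart from that of Acot2 loss. Which exons were flanked by loxP sites is not given in the sources used here. Each library has its own mouse number, so the mice were taken as separate animals.

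A myosin molecule carries on each heavy chain head 1 essential and 1 regulatory light chain, which stiffen the lever arm that moves actin. Adult fast fibres use Myl1 and Mylpf, slow fibres use Myl3 and Myl2, developing fibres add Myl4, and non-muscle and smooth muscle myosins use Myl6. In fast skeletal muscle, calcium and calmodulin activate the Mylk2 kinase, which phosphorylates the regulatory light chain and raises force at low calcium. White quadriceps consists mostly of fast glycolytic fibres, so slow isoforms are minor transcripts there.

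Reads on genes ranged from 28659595 to 38612920 in knockouts and from 32282226 to 40977859 in floxed controls. Acot2 itself averaged 467 ± 130 normalized counts in knockouts and 2406 ± 1099 in floxed controls (SD, n = 4 each; exact two-sided permutation p = 0.0286, the smallest this design allows). With limma and Benjamini-Hochberg adjustment over 13141 tested genes, 0 genes (0%) had an adjusted p under 0.05, Acot2 included (adjusted p = 0.087). At an unadjusted p under 0.05 limma gave 810 genes (6.16%), 324 higher (2.47%) and 486 lower (3.7%) in knockouts, while voom on the recovered reads gave 0 adjusted and 756 unadjusted. Scaling all libraries to the same total turned the share that was higher to 66.4%, against 40.0% with the deposited values. As a check of the tissue label, the muscle actin gene Acta1 had 602916 to 953120 normalized counts in every library, while of 5 heart markers Nkx2-5 and Myl7 were listed at 0 throughout, Nppa reached 1 read in 1 knockout, and Myh6 and Actc1, which skeletal muscle can also express, were detected in every library. Values below are the authors' read counts divided by 1 size factor per library (normalized counts), and a difference is the knockout mean less the floxed control mean of log2(normalized count + 1), given with its SE, the standard error from limma. In whole muscle, fewer fibres or cells of a type and less RNA per cell cannot be told apart.

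Of the 8 genes 6 had a mean difference above 0, against 50.6% of all tested genes, and the median difference was 0.24, against 0.0031 over all tested genes. None passed an adjusted p of 0.05. At an unadjusted p under 0.05 by limma there was 1 gene higher, Myl3, and 1 lower, Mylk2. Of all tested genes, 2.47% were higher and 3.7% lower at that p. In 1 of the 8, Myl3, every knockout lay beyond every floxed control, which 2.75% of tested genes did.

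**Figure D1:**
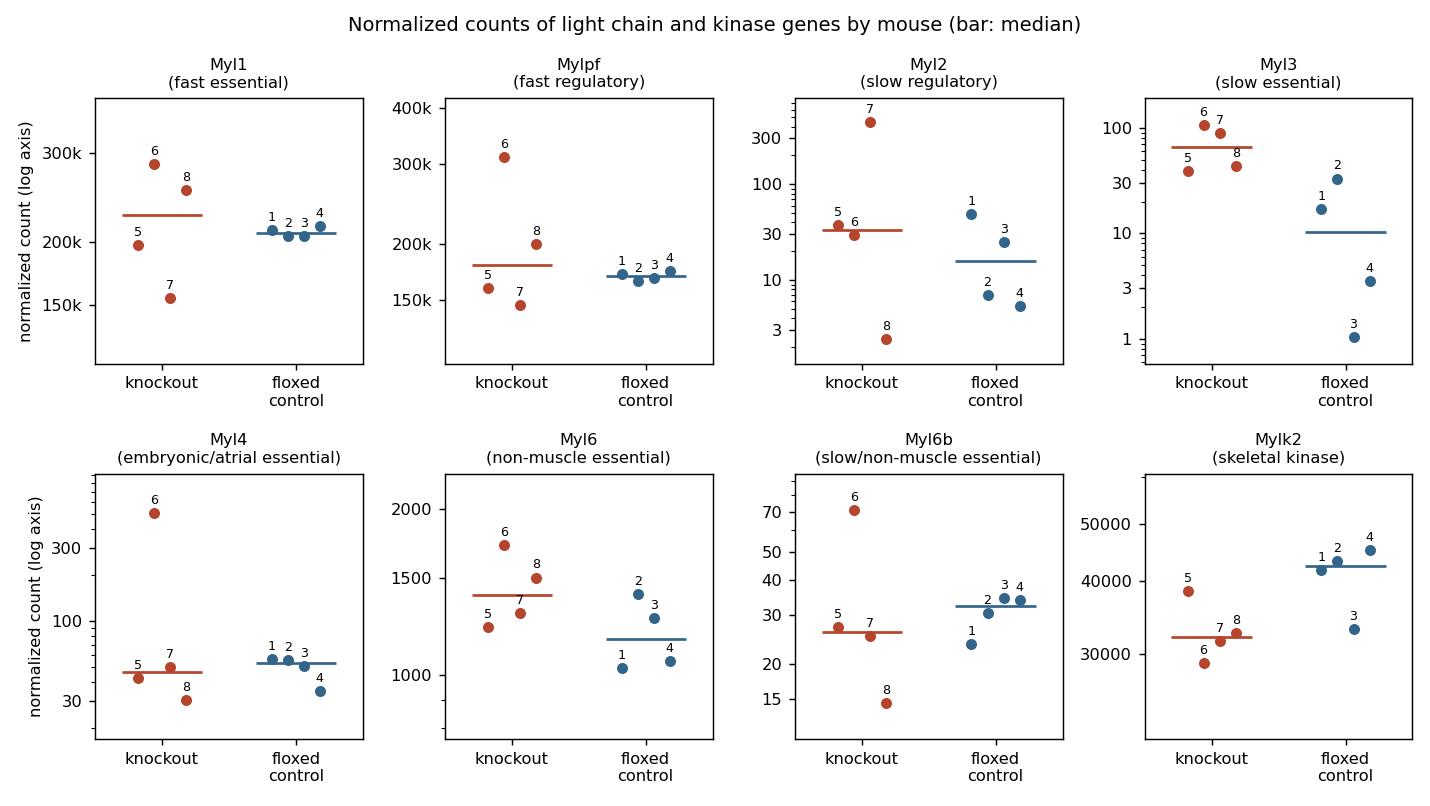
Normalized counts (log axis, own range in each panel) of the 8 genes in each mouse, with the mouse number beside each point and a bar at the group median, knockouts on the left. The fast genes Myl1 and Mylpf form a tight cluster in floxed controls and spread in knockouts, the 4 knockouts lie above the floxed controls for Myl3, and knockouts 6 and 7 are single high points for Myl4 and Myl2.

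**Figure D2:**
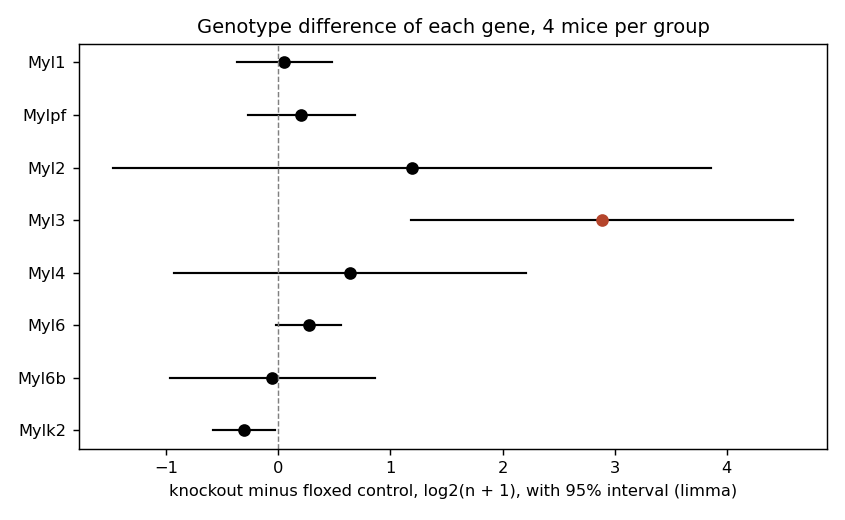
Mean difference of each gene, knockout minus floxed control, on the log2(normalized count + 1) scale with the 95% interval of the limma fit, 4 mice per group; the red point marks the gene whose groups did not overlap. The interval lay above 0 for Myl3 (1.18 to 4.59) and below 0 for Mylk2 (-0.58 to -0.029), and it crossed 0 for the other 6.

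Per kilobase of annotated exon, levels over the 8 libraries differed widely between the genes. Mylpf had a median of 159494 normalized counts per kb (range 137751 to 293828) and Myl1 of 100506 (74698 to 137501), ranges that just miss each other. With the longest annotated transcript as the length the ranges overlapped, at 190982 to 407370 for Mylpf and 143182 to 263564 for Myl1. Within each library, though, Mylpf was above Myl1 with that length too, closest in knockout 8 (260744 and 234413). Mylk2 followed with 12108 normalized counts per kb (9803 to 15278), a kinase transcript whose median was 8.30-fold below that of Myl1, or 15.9-fold with the longest transcript as the length. Myl6, the essential chain of non-muscle and smooth muscle myosin, had 402 (323 to 539). The others were minor transcripts with overlapping ranges and cannot be ordered beyond their spread. Their medians were 17.6 normalized counts per kb for Myl3 (0.51 to 52.2), 15.6 for Myl6b (7.86 to 38.3), 14.0 for Myl2 (1.24 to 226) and 10.9 for Myl4 (6.52 to 111). By median with the longest transcript, Myl2 and Myl6b changed places and the other 6 kept theirs.

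The slow chains thus made up a very small part of their class. Per kb, Myl3 was 0.0174% to 0.0585% of the sum of Myl3 and Myl1 in knockouts and 0.000515% to 0.0164% in floxed controls. Myl2 was 0.00066% to 0.164% of the sum of Myl2 and Mylpf in knockouts and 0.00167% to 0.0157% in floxed controls. The log2 balance of Myl3 against Myl1 averaged -11.72 ± 0.807 in knockouts and -14.55 ± 1.85 in floxed controls, and that of Myl2 against Mylpf -12.38 ± 3.11 in knockouts and -13.37 ± 1.42 in floxed controls (SD, n = 4 each). These balances join 2 genes each and are given without a test.

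The fast pair varied together between mice. Myl1 lies on the minus strand of chromosome 1 (66924295 to 66945404 in GRCm38) and makes the essential chains MLC1f and MLC3f from separate starts, which counts per gene do not separate. Mylpf, the regulatory chain that Mylk2 phosphorylates, lies on the plus strand of chromosome 7 (127208890 to 127214298). Shown are the 250 bases before the RefSeq start (table build GRCm38.p6) of these genes, which moved together, and of Myl3, whose groups did not overlap. Capitals mark E-boxes (CANNTG, searched on both strands), the kind of site that myogenic factors such as MyoD bind.
Myl1 (chr1:66945057-66945306, minus strand): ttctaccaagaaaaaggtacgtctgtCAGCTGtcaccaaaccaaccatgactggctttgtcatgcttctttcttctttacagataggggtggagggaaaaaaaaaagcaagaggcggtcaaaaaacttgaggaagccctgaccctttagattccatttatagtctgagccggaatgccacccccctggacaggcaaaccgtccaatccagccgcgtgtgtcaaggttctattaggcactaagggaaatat
Mylpf (chr7:127211358-127211607, plus strand): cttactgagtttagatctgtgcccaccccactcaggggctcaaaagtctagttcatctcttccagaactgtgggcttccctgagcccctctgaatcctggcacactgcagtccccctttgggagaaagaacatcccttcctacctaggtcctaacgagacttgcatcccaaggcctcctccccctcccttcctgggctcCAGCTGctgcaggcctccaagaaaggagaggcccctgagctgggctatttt
Myl3 (chr9:110763428-110763677, plus strand): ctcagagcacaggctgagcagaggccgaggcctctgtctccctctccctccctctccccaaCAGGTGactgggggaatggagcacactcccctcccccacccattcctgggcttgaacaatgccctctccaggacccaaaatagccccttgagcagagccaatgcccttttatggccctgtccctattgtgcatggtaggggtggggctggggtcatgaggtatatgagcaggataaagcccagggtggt

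Each of the 3 windows holds 1 E-box, and 66.2% of 32536 distinct promoter windows of that length hold at least 1. In the fast genes it reads CAGCTG, with its first base at position -224 from the start in Myl1 and -51 in Mylpf, and in Myl3 it reads CAGGTG, at position -189. The other motifs were also searched on both strands. A TATAAA match (12.3% of windows) was found in Myl1 only, on the opposite strand (TTTATA as shown), with its first base at position -95. The MCAT motif (CATTCC, 12.6% of windows), a site of TEAD factors, matched 1 time in Myl1, 2 times in Myl3 and not in Mylpf. A CArG box (1.48% of windows), the site of serum response factor, matched in Myl3 only, at position -85, and a MEF2 site (2.89% of windows) in none of the 3. Of the 8 genes, 7 had a window in the RefSeq table; a match is a run of letters and was not tied to binding here.

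Myl1 had 197254, 285176, 154923 and 253635 normalized counts in knockouts 5 to 8 and 211411, 204834, 205488 and 214481 in floxed controls 1 to 4. The floxed controls lay within 1.05-fold of each other, while knockouts 6 and 8 lay above all of them and knockouts 5 and 7 below. The mean difference was 0.05 (SE 0.192, limma adjusted p = 0.958).

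Mylpf had 159920, 312045, 146292 and 199730 normalized counts in knockouts 5 to 8 and 171184, 165456, 167580 and 174116 in floxed controls 1 to 4. Knockouts 6 and 8 again lay above every floxed control and knockouts 5 and 7 below. The mean difference was 0.20 (SE 0.217, limma adjusted p = 0.837), and it was -0.020 without knockout 6, where that of Myl1 was -0.079.

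**Figure D3:**
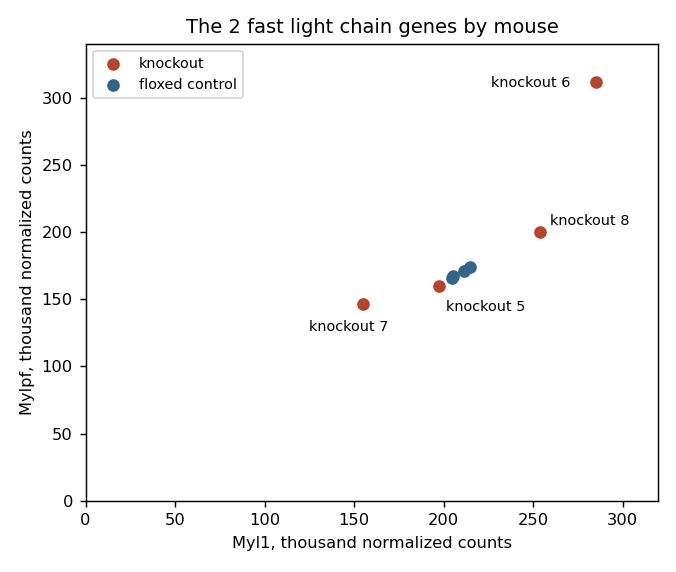
Mylpf against Myl1 in units of 1000 normalized counts (linear axes from 0), 1 point per mouse. The 4 floxed controls sit within 1.05-fold of each other on both axes, and knockouts 7, 5, 8 and 6 run in the same order for both genes.

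Across the 8 libraries the genes had the same rank order (Spearman rho = 1.00, exact permutation p = 4.96e-05, the smallest possible, adjusted p = 0.000446 over 9 gene pairs). Pearson's r of the log2 values was 0.881 (exact permutation p = 0.000322, adjusted p = 0.0029), and 0.970 without knockouts 6 and 8, the libraries farthest from the median of Mylpf. With group means removed, r was 0.899 (permutation adjusted p = 0.0275), and 0.723 without knockouts 6 and 7. Here and below, the means were taken over all mice of a group, before any mouse was left out. The centred values were permuted across all 8 mice of both groups. Centring ties the values within a group, so permutation p-values with group means removed are approximate. Per kb, the ratio of Mylpf to Myl1 was 1.58, 2.14, 1.84 and 1.54 in knockouts 5 to 8 and 1.58, 1.58, 1.59 and 1.59 in floxed controls 1 to 4. Knockouts 6 and 7 thus had more Mylpf per Myl1 than every floxed control. The correlation of Mylpf with the fast heavy chain gene Myh4 did not pass (r = 0.423, exact permutation adjusted p = 0.318) and moved widely with the mice used: r was 0.814 without knockouts 6 and 8, and with group means removed it was 0.556, or -0.44 without knockouts 6 and 7.

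The spread of the fast pair differed between groups more than that of most genes. The SD of log2 values was 0.488 in knockouts and 0.0326 in floxed controls for Mylpf, a ratio of 15.0, and 0.392 and 0.0322 for Myl1, a ratio of 12.2. Over all 13141 tested genes the median ratio was 1.24, and 0.107% and 0.145% of genes had a ratio at least as large as Mylpf and Myl1. Without knockout 6 the ratios were 7.10 for Mylpf and 11.0 for Myl1, against a median of 1.19. A very small SD among 4 floxed controls raises such a ratio, and the difference in spread was not tested. Acta1, the actin of the same fibres, also had its largest value in knockout 6 (953120) and its smallest in knockout 7 (602916). Its SD was 151621 normalized counts in knockouts and 16352 in floxed controls. Less the floxed control mean, its log2 values ran from -0.205 to 0.456 in knockouts and from -0.0346 to 0.0387 in floxed controls. For the kinase gene Mylk4 the SDs of normalized counts, not of log2 values, were 14847 and 733. Knockout 8 had 53993 of Mylk4, against 19589 to 30097 in the other knockouts. A wider spread in knockouts was thus not particular to the fast pair, though Mylk2 did not show it (log2 SD 0.171 and 0.200).

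A processed copy of Myl1, Mylf-ps, shares a stretch of up to 167 bases with it, so reads can be split between them. Mylf-ps had 0.213% to 0.230% of the Myl1 count in knockouts and 0.207% to 0.277% in floxed controls. No pair of the 8 genes shared more than the 46 bases common to Myl6 and Myl6b.

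Myl3, the slow and ventricular essential chain, had the largest difference of the 8. It lies on the plus strand of chromosome 9 (110741861 to 110769798). Myl3 had 38.8, 106.7, 89.4 and 43.6 normalized counts in knockouts 5 to 8 and 17.2, 33.1, 1.04 and 3.56 in floxed controls 1 to 4. All 4 knockouts lay above every floxed control. The group means were 69.6 ± 33.7 in knockouts and 13.7 ± 14.7 in floxed controls (SD, n = 4 each), a ratio of 5.08. On the log2 scale the difference was 2.89 (SE 0.775), a fold of 7.40, with an unadjusted p of 0.00338 and an adjusted p of 0.746 by limma, the 16th smallest p of 13141 genes.

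These values rest on few reads: 43, 98, 96 and 36 in knockouts 5 to 8, and 16, 38, 1 and 4 in floxed controls 1 to 4. The exact 95% Poisson interval, which covers counting error only, was 28.1 to 52.2 normalized counts in knockout 5 and 23.4 to 45.4 in floxed control 2, so the closest mice of the groups were not resolved at this depth. In unscaled reads knockout 8 fell below floxed control 2, while with the deposited and 3 other scalings all 4 knockouts stayed above. Without knockouts 6 and 7 the difference was 2.27 (limma unadjusted p = 0.050), and over all alternatives the adjusted p lay between 0.124 and 0.9998. Of the exon bases of Myl3, 95 are shared with Pth1r on the other strand. Pth1r, a hormone receptor gene, had 16.9 to 31.5 normalized counts in knockouts and 12.9 to 18.8 in floxed controls. The kit marks strand, but the strand setting of the counting is not given in the sources used here, so reads on the shared bases cannot be told apart.

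Myl2, the slow and ventricular regulatory chain, did not follow Myl3. It lies on the plus strand of chromosome 5 (122100951 to 122113472). Myl2 had 37.9, 29.4, 441 and 2.42 normalized counts in knockouts 5 to 8, from 42, 27, 474 and 2 reads, and 49.3, 6.96, 25.02 and 5.33 in floxed controls 1 to 4, from 46, 8, 24 and 6 reads. Knockout 7 was 17.6-fold above the median of the other 7 mice and knockout 8 was the lowest of all, so the groups overlapped. The difference was 1.19 (SE 1.21, limma adjusted p = 0.836), with -0.0090 without knockout 7 and 2.33 without knockout 8 (limma unadjusted p = 0.0419, adjusted p = 0.935). Its adjusted p lay between 0.708 and 0.999 when 1 mouse was left out. The log2 values of Myl2 and Myl3 correlated with r = 0.315 (exact permutation adjusted p = 0.448; Spearman rho = 0.262, adjusted p = 0.690), and r was 0.271 without knockouts 7 and 8. With the slow heavy chain gene Myh7, Myl2 gave r = 0.787 (exact permutation p = 0.0167, adjusted p = 0.075; rho = 0.857, adjusted p = 0.0482) and r = 0.834 without the same 2 mice. For Myl2 and Myh7 with group means removed, r was 0.766 (permutation adjusted p = 0.0757) and rho was 0.81 (permutation adjusted p = 0.0653), so neither passed. With the slow troponin gene Tnni1, Myl2 gave r = 0.600 (exact permutation adjusted p = 0.232).

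Other slow fibre genes were set beside the slow light chains. All 8 listed slow markers had a difference above 0, with a median of 0.42, but none had an unadjusted p under 0.05 and in none did the groups separate. Their summed level was 2031 to 5901 normalized counts in knockouts and 1897 to 3859 in floxed controls, with the top value in knockout 7. Myh7 had 303, 54.5, 136 and 13.3 normalized counts in knockouts 5 to 8 and 83.6, 12.2, 43.8 and 18.7 in floxed controls 1 to 4, so knockout 8, with 43.6 of Myl3, had nearly the least Myh7 and the least Myl2. Knockout 7 also had the most Myh2, a heavy chain gene of fast oxidative fibres (59055 normalized counts, 12.6-fold the median of the other 7), and the most Csrp3 and Myoz2, genes of Z-disc proteins abundant in slow and cardiac muscle (1963 and 1545). Of the other slow markers, Tpm3 was also highest in knockout 7. Tnni1, Tnnt1, Tnnc1 and Atp2a2 were highest in knockout 6, and Myh7 in knockout 5. The part of fibre type in the Myl2 and Myl3 values was not tested.

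**Figure D4:**
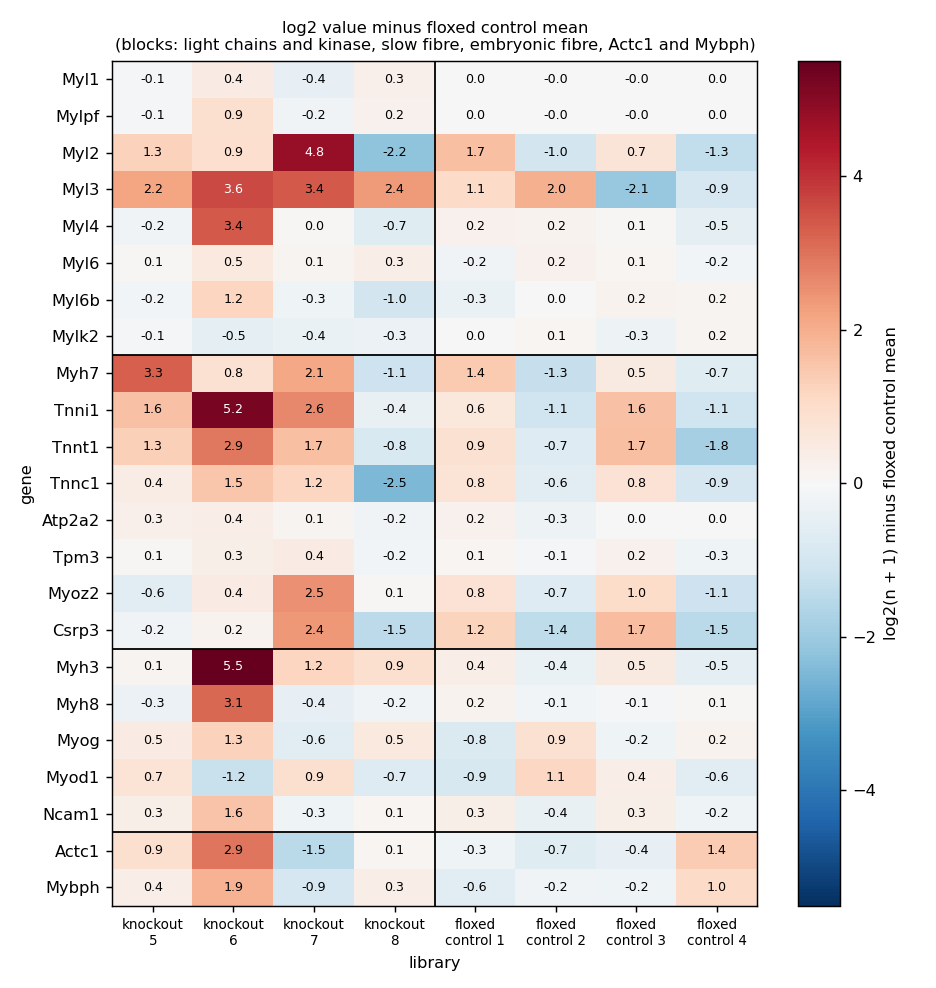
Each library's log2(normalized count + 1) minus the mean of the 4 floxed controls, for the 8 genes (top block), slow fibre genes, embryonic fibre genes, and Actc1 with Mybph (bottom block), knockouts in the left 4 columns. The Myl3 row is above 2 in all 4 knockouts, Myl2 stands out in knockout 7 (4.8), and Myl4, Tnni1, Myh3 and Myh8 stand out in knockout 6 (3.4, 5.2, 5.5 and 3.1).

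Myl4 and Myl6b, the embryonic and the slow or non-muscle essential chains, were both highest in knockout 6. Myl4 (plus strand of chromosome 11, 104550663 to 104595753) had 42.4, 514, 50.3 and 30.3 normalized counts in knockouts 5 to 8 and 56.8, 55.7, 51.1 and 34.7 in floxed controls 1 to 4. Knockout 6 was 10.2-fold above the median of the other 7 mice, and the other 3 knockouts lay within or below the floxed range. The difference was 0.64 (SE 0.713, limma adjusted p = 0.845) and turned to -0.27 without knockout 6.

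Myl6b (minus strand of chromosome 10, 128494157 to 128498685) had 27.0, 70.8, 25.1 and 14.5 normalized counts in knockouts 5 to 8 and 23.6, 30.5, 34.4 and 33.8 in floxed controls 1 to 4. Knockout 6 was again the highest, though only 2.62-fold the median of the other 7 mice, and knockout 8 the lowest. The difference was -0.055 (SE 0.416, limma adjusted p = 0.981).

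In the same knockout, the embryonic heavy chain gene Myh3 reached 2526 normalized counts, against 61.3 to 125 in the other knockouts and 39.1 to 78.2 in floxed controls. The neonatal heavy chain gene Myh8 reached 2412, against 199 to 235 in the other knockouts and 246 to 306 in floxed controls. Knockout 6 also had the most Tnni1 (293), Ncam1 (471), Actc1, the cardiac and developmental actin gene (115833), and Mybph, a thick filament protein gene (5315). The 5 detected embryonic fibre markers summed to 5530 normalized counts in knockout 6, to 548 to 595 in the other knockouts and to 530 to 614 in floxed controls, while Myod1, a myogenic factor, was at its lowest in knockout 6 (14.2). The log2 values of Myl4 and Myh3 correlated with r = 0.924 (exact permutation adjusted p = 0.196; rho = 0.286), and r was 0.411 without knockouts 6 and 8, so the pooled relation rested on those mice. With group means removed it was r = 0.960 (permutation adjusted p = 0.0212, approximate as said above). Leaving out the same 2 mice after that step gave 0.858. The knockout means removed still included those mice, so 0.858 does not show the relation without them. The part of embryonic fibre genes in the Myl4, Myl6b and Mylpf values of knockout 6 was not tested.

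Myl6 was somewhat higher in knockouts, within the spread between mice. It lies beside Myl6b on the minus strand of chromosome 10 (128490860 to 128494145). Myl6 had 1221, 1717, 1293 and 1501 normalized counts in knockouts 5 to 8 and 1029, 1399, 1267 and 1057 in floxed controls 1 to 4. Knockouts 6 and 8 lay above every floxed control, and all 4 lay above the floxed median. The difference was 0.27 (SE 0.132, limma unadjusted p = 0.0659, adjusted p = 0.746). The correlation of Myl6 with Myl6b did not pass (r = 0.326, exact permutation adjusted p = 0.448). With group means removed, r was 0.436 (permutation adjusted p = 0.358, approximate).

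Other light chain genes, and the smooth muscle and non-muscle heavy chain genes, were set beside Myl6. All 4 other light chain genes that were tested had a difference above 0, with a median of 0.24, against 50.6% of all tested genes above 0. Of the 4, 2 were higher at an unadjusted p under 0.05, against 2.47% of all tested genes. Myl10, another of the 4, is not taken here as a smooth muscle or non-muscle chain. It differed by 0.11 (SE 0.757, limma unadjusted p = 0.886). Myl9, the smooth muscle regulatory chain, had 500 ± 48.4 normalized counts in knockouts and 400 ± 81.3 in floxed controls (SD, n = 4 each; difference 0.34, SE 0.146, limma unadjusted p = 0.0414). Myl12b, a non-muscle regulatory chain, had 227 ± 18.8 in knockouts and 179 ± 23.9 in floxed controls, without overlap (difference 0.34, limma unadjusted p = 0.0284). Myl12b shares a stretch of up to 120 bases with Myl12a, whose difference was 0.15, so both counts carry that uncertainty. Adjusted p was 0.746 for Myl9 and Myl12b by limma. Smooth muscle markers were above 0 in 6 of 6, with a median of 0.44, and summed to 3009 to 4801 normalized counts in knockouts and 2389 to 3751 in floxed controls. The correlation of Myl6 with the smooth muscle actin gene Acta2 was r = 0.596 (exact permutation adjusted p = 0.232). Of the smooth muscle and non-muscle heavy chain genes, Myh11, of smooth muscle, had a difference of 0.44 (SE 0.171) with a limma unadjusted p of 0.025. Myh14, a non-muscle form, went the other way, without overlap between the groups (difference -0.35, SE 0.106, limma unadjusted p = 0.00647). The limma adjusted p was 0.746 for both. Macrophage markers had differences above 0 in 4 of 4, with a median of 0.71, and 3 were higher at an unadjusted p under 0.05. Endothelial markers were above 0 in 4 of 5, with a median of 0.28, and all 4 of these were higher at an unadjusted p under 0.05. The groups did not overlap for 1 of 4 macrophage markers (Adgre1) and 2 of 5 endothelial markers (Pecam1 and Flt1), against 2.75% of all tested genes. The part of these cell types in the Myl6 values was not tested.

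Mylk2, the kinase of the fast regulatory chain, was lower in knockouts without passing adjustment. It lies on the plus strand of chromosome 2 (152911352 to 152923068). Mylk2 had 38428, 28929, 31581 and 32595 normalized counts in knockouts 5 to 8 and 41663, 43162, 33032 and 45085 in floxed controls 1 to 4. Knockouts 6, 7 and 8 lay below every floxed control, and knockout 5 lay above floxed control 3. The means were 32883 ± 4006 in knockouts and 40735 ± 5323 in floxed controls (SD, n = 4 each), a ratio of 0.807. The difference was -0.31 (SE 0.126), with a limma unadjusted p of 0.0336 and an adjusted p of 0.746. Floxed control 3 was the lowest of its group, and the check for a single distant mouse, given below, did not flag it. Without floxed control 3 the difference was -0.40 (limma unadjusted p = 0.00786), while leaving out floxed control 4 gave -0.25 (limma unadjusted p = 0.0946). Without knockouts 6 and 7 the difference was -0.19 (limma unadjusted p = 0.229), and over all alternatives the adjusted p lay between 0.164 and 0.9998. With equal totals or centring on the median, 2 knockouts in place of 3 lay below every floxed control.

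The share of Ttn, the transcript of the giant sarcomere protein titin, is set beside Mylk2. Ttn took 13.9%, 8.67%, 8.34% and 9.22% of normalized counts in knockouts 5 to 8 and 12.8%, 11.8%, 12.2% and 14.9% in floxed controls 1 to 4. Knockout 5 had the most Ttn and the most Mylk2 of the knockouts, and floxed control 4 the most of both among floxed controls. Floxed control 3, with the least Mylk2 of its group, did not have its lowest Ttn share. In normalized counts, the scale used for Mylk2, it did have the least Ttn (4096040, against 4218210 to 5302350 in the other floxed controls). Among knockouts, Mylk2 was lowest in knockout 6 and the Ttn count in knockout 7 (2613770). With a trend on transcript length and GC content removed, the Mylk2 difference was -0.28 (limma unadjusted p = 0.0513). The part of transcript length in it was not tested further. Per 1000 normalized counts of its substrate's transcript, Mylpf, there were 240, 92.7, 216 and 163 of Mylk2 in knockouts 5 to 8 and 243, 261, 197 and 259 in floxed controls 1 to 4. Knockouts 6 and 8 lay below every floxed control in this ratio, and knockout 6, with the most Mylpf, was the lowest. The log2 values of Mylk2 and Mylpf correlated with r = -0.502 (exact permutation adjusted p = 0.288; rho = -0.143), and r was -0.028 without knockout 6 and floxed control 4, so the relation rested on those mice.

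Genes around the kinase showed no called change. Of the other light chain kinases, Mylk, of smooth and non-muscle cells, differed by 0.16 (SE 0.088) and Mylk4 by 0.11 (SE 0.239). Mylk4 reached 53993 normalized counts in knockout 8, against 19589 to 30097 in the other knockouts and 27576 to 29139 in floxed controls. Mylk3, the cardiac kinase, was below the filter of a mean of 10 normalized counts and was not tested. It had 3.61, 6.54, 8.38 and 4.84 normalized counts in knockouts 5 to 8 and 0, 0.87, 0 and 1.78 in floxed controls 1 to 4, so the groups did not overlap but rested on single-digit reads. The calmodulin genes Calm2 and Calm3 differed by 0.17 (SE 0.138) and -0.0016 (SE 0.0744). Of 11 genes of the light chain phosphatase and its control, 6 were above 0 and 5 below, with a median of 0.0076 and none at an unadjusted p under 0.05. Among them were Ppp1cb, the catalytic subunit (0.0076, SE 0.0887), and Ppp1r12b, the myosin-targeting subunit of striated muscle (-0.078, SE 0.0801). Sarcomeric heavy chain genes were above 0 in 4 and below in 5 of 9 tested, with none at an unadjusted p under 0.05, and thick filament partners above 0 in 4 of 6. Myosin assembly chaperone genes differed by 0.21 (Smyd1), 0.038 (Hsp90aa1) and -0.0047 (Unc45b).

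Genes most like each member across the 8 libraries, with group means removed, were read off 11762 tested genes by Pearson's r, as a description from 8 points. The 8 members themselves were left out of those compared. For Myl1 these were Kcnip3 (0.992), Pard6b (0.980) and Reep1 (0.979), and for Mylpf they were Pdlim7 (0.997), Ucp2 (0.980) and Ola1 (0.979). For Mylk2 they were Lrp3 (0.987), Cdc73 (0.986) and Ptgfr (0.985). For Myl2 they were Pqlc1 (0.991), Fzd9 (0.981) and Emp2 (0.961). For Myl3 they were Atp13a5 (0.934), Noc2l (0.933) and Mob3b (0.928), lower than for the other 7 genes. Those of Myl4 were Lgmn (0.978), Eef1a1 (0.975) and Hist1h2bn (0.971), those of Myl6 were Celf1 (0.991), Cmtm7 (0.979) and Polr2i (0.970), and those of Myl6b were Pdgfra (0.960), Col6a2 (0.958) and Ms4a6b (0.956). None of the 24, which could not include the 8 members, is another myosin gene or a troponin or actin gene.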

How the data were processed

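The labels' protocols give total RNA, extracted by a Norgen Biotek kit, and a TruSeq Stranded library kit. STAR, HTSeq, DESeq2, FastQC and cutadapt stand in the submitters' processing notes with no version, beside the build GRCm38. The values deposited by the authors are log2(n + 1), where n is the count of reads scaled by a library's size factor; 100% of values up to 200 reads lay within 0.1 of a whole read. Genes with a mean n of at least 10 (13141) were tested with limma 3.58.1 in R 4.3.3 (empirical Bayes with trend), with Benjamini-Hochberg adjustment over all of them. Voom, also from limma, was run on the recovered reads. The fit was tested on simulated data. The log2(n + 1) scale understates fold changes of low genes. Levels per kb use the union of GENCODE M21 exons. Correlations over 9 pairs used two-sided exact permutation (scipy 1.17.1). For values centred on group means the same permutation gives approximate p-values only. The members and lists were chosen with earlier results of these data known. Named genes are the members, Acot2, the genes of the lists and, for each member, the 3 most alike tested genes with established symbols; Pth1r, Mylf-ps and the comparison of spread were added after values were seen. Alternatives covered the pseudocount, the filter, scaling, weights and each mouse left out. Reads carry no molecular identifiers in these values, so read intervals cover counting error only. A gene of the lists is not reported here.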

Additional observations from a re-analysis of the deposited data

Results flagged for a closer look

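Of 36 group checks for a single distant mouse (8 genes and Acot2, 2 groups, normalized counts and log2 values), 2 were flagged, where chance gives about 1 in 20. The Myl4 level of 514 normalized counts in knockout 6 stood apart, since its gap to the next knockout was 0.959 of the group's range, above the 95% limit of Dixon's test for 4 mice. The Myl2 level of 441 normalized counts in knockout 7 stood apart in the same way, with a gap of 0.919 of the range. On the log2 scale neither gap passed that limit (0.823 for Myl4 and 0.50 for Myl2).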

How the results depend on the processing

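Over the alternatives, 178 of 190 values of the 8 gene differences kept their sign, no gene passed adjustment, and the lowest adjusted p was 0.124 (limma). Myl3 (1.86 to 3.54) and Myl6 stayed above 0 and Mylk2 (-0.404 to -0.193) below 0 in every alternative that gave a value; Myl3 and Myl6b gave none at a mean of at least 50. With the trend on length and GC removed, Myl1 turned to -0.0447. Without both floxed control 4 and knockout 5, Myl6b turned to 0.0298. Without both knockouts 6 and 7, an alternative chosen after seeing the data, Myl2 turned to -0.475 and Myl4 to -0.432. Leaving out 1 mouse gave -0.0788 to 0.215 for Myl1 (-0.0225 without knockout 8), -0.0203 to 0.344 for Mylpf, -0.00902 to 2.33 for Myl2, 2.19 to 3.54 for Myl3, -0.273 to 1.07 for Myl4, and -0.474 to 0.263 for Myl6b, which turned to 0.00495 without floxed control 3, 0.0120 without knockout 7 and 0.263 without knockout 8. The group difference in log2 Myl2 minus Mylpf was 0.985, and -0.353 without knockout 7 to 2.13 without knockout 8. The Myl4 and Myh3 correlation passed at r = 0.960 with values centred on group means, where its permutation p is approximate, and did not pass without centring. Without the filter on low values 1 gene was called, Acot2 (difference -2.30, adjusted p = 0.00421), against 0. The count at an unadjusted p under 0.05 was 810, and 1362 without the filter, 1467 with library weights, 1509 without both floxed control 4 and knockout 5, and 246 without both knockouts 6 and 7. Leaving out 1 mouse gave 367 (without floxed control 4) to 2200 (without knockout 5), with 518 without floxed control 1, 422 without knockout 6 and 456 without knockout 8; the cause was not tested.

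The titles number the mice 1 to 8 and so pair none. The numbers in the column names repeat between groups; a fit with the replicate block by those numbers, added after seeing the data, called 0 genes (931 unadjusted), and same-numbered deviations correlated at -0.0531, 0.10, 0.281 and -0.162, with 2 of 4 knockouts closest to their own number. Depth limits Myl2, Myl3, Myl4, Myl6b and Mylk3, where single libraries rest on few reads.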
